A study of Rattus norvegicus with 10 samples.

Results

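The nuclear genes for the mitochondrial ribosome, for the machinery that imports proteins into mitochondria, for the carriers of the inner membrane and for the shape of that membrane were examined in rat lens capsules with and without cold storage. Genes were taken by the start of their names (Mrpl, Mrps, Timm, Tomm, Chchd, Coa followed by a digit, Slc25a, Mtch, Micos, Mtfp, Mtfr, Mfn and Opa), and not by their values, from a table that the authors' own test had already narrowed. The rule found 71 of the 3334 genes in the deposited table, all of them protein-coding: 24 Mrpl, 17 Mrps, 9 Timm, 4 Tomm, 7 Chchd or Coa, 7 Slc25a, and the 3 genes Micos10, Micos13 and Mtfr1l. No gene with a name in Mtch, Mtfp, Mfn or Opa was listed, and such genes, like the further subunits of each complex outside the table, were not analysed here. A few names cover other work: Timmdc1 is an assembly factor of respiratory complex I, Mrpl58 is also a peptidyl-tRNA hydrolase, and Mrps36 is now placed with the 2-oxoglutarate dehydrogenase complex.

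Mitochondria keep their own small genome, and its messages are read by a mitoribosome whose proteins are all encoded in the nucleus. Those proteins, like nearly all others of the organelle, are made in the cytosol, enter through the TOM complex of the outer membrane, and are passed to the TIM23 complex (for precursors with a cleavable presequence) or, with small TIM chaperones as escorts, to the TIM22 complex (for carriers of the SLC25 family). In the lens, the epithelial cells under the anterior capsule hold mitochondria, while fibre cells lose them, together with their nuclei, as they mature.

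There were 5 rats in each group, all males of the Sprague-Dawley strain at 6 weeks of age, and 1 sample came from each. In the Hypothermia Group the isolated lenses were kept for 8 h at 4°C in Hibernate-A, a storage medium for live tissue, before the capsules were peeled off. In the Normal Group the capsules were taken as soon as the rats had been killed, with no incubation, so temperature, medium and time after death cannot be told apart. Because whole capsules were sequenced, fewer cells of a type and less RNA per cell cannot be told apart either.

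The table was itself selected by the outcome. By its own columns it holds genes chosen by the authors' test of the same contrast in the same rats: the smallest size of a fold change in it was 0.25 on the log2 scale, so all values for these genes are read against the other listed genes and not against the transcriptome. The summed counts of listed genes were 9026144 to 12415121 in the Hypothermia Group and 4792595 to 8177803 in the Normal Group, and raw counts of the 71 genes ran from 44 to 5820. Normalized read counts below are raw counts divided by the authors' size factors, and FPKM values (fragments for each kilobase of a gene, here on the same depth scale) are used only to compare levels between genes. Values of single rats are given in the order of rats 1 to 5.

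Of the 71 genes, 69 (97.2%) had higher mean levels in the Hypothermia Group, against 63.7% of all 3222 listed genes tested. With edgeR's quasi-likelihood test and Benjamini-Hochberg adjustment over 17000 genes, 57 of the 71 were called higher at an adjusted p under 0.05, against 52.3% of all listed genes. Only Slc25a10 was called lower, against 20.5% of all listed genes, and 13 genes were not called. All 5 rats of the Hypothermia Group stood above all 5 of the Normal Group for 41 of the genes (41.9% of all listed genes did so) and below them for 1 (16.7%). The changes were small: the median log2 fold change was 0.46 (1.37-fold) against 0.36 for all listed genes, and 3 genes exceeded 1.

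How many of the 71 genes were higher hung on the scaling of the rats. With TMM factors computed on the listed genes 66 were above 0, and with median-of-ratios factors 60. With totals without lens structural genes 38 were, and with totals of all listed genes 1 was. Of all listed genes, 59.1%, 56%, 40.3% and 8.66% were above 0. TMM and median-of-ratios factors assume that most genes do not change, which fails on a table selected for change. Relative to the median of all listed genes, the median of the 71 genes stood 0.10 higher on the log2 scale, and it stood between 0.07 and 0.12 higher under every other setting tried. TMM factors computed on the listed genes moved the median of all listed genes by -0.29, and 17 of the 71 genes were then called higher and 2 lower, against 19.8% and 34.2% of all listed genes. Those 17, which median-of-ratios factors also called, were 7 Mrpl, 4 Mrps, 2 Timm, 1 Tomm and 2 Chchd genes and Micos13, with no carrier among them. Of the genes described rat by rat below, Mrps21, Tomm7, Tomm20, Timm8a1, Timm13, Chchd3, Coa5 and the higher carriers lost their calls with both. Division by the sum of all listed genes, which lens crystallins dominate, moved the median of all listed genes by -1.23. Then 70 of the 71 genes were lower in the Hypothermia Group (91.3% of all listed genes were), with 53 called lower, against 74.4% of all listed genes. Separation of the groups hung on it as well: all Hypothermia rats were above all Normal rats for 16 of the 71 genes with TMM or median-of-ratios factors (18% and 17.3% of all listed genes), for 5 with totals without lens structural genes (9.03%) and for 0 with totals of all listed genes, where 51 were wholly below (69.2%). Statements below that groups were apart or overlapped refer to the authors' size factors. The count of genes called higher also fell to 37 without Hypothermia rat 3, to 35 without Normal rat 4 and to 34 without Normal rat 5. Of all listed genes, 36.2%, 33.3% and 36.2% were called higher in those fits, against 52.3% with all rats. Whichever rat was left out, 34 of the 58 calls were kept.

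**Figure D1:**
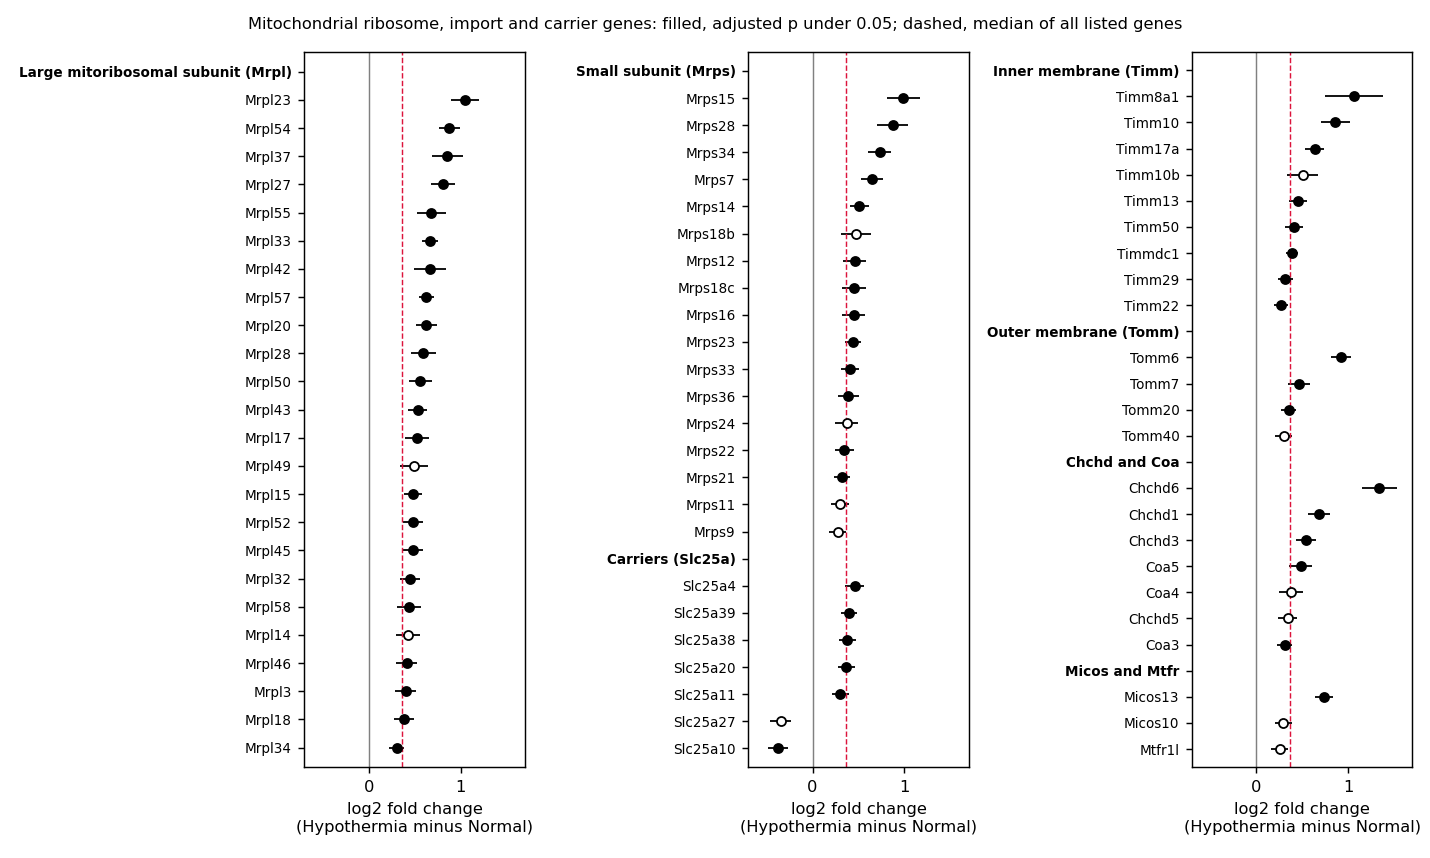
Log2 fold change (Hypothermia minus Normal, horizontal axis) of each of the 71 genes by family, with the SE of the fit as a bar; filled points passed an adjusted p under 0.05 in edgeR's quasi-likelihood test and open points did not. The dashed line marks the median of all listed genes at 0.36; on the authors' size factors 69 points lie right of 0, while scaling by the sum of all listed genes would put 70 of them left of it.

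Promoter sequences show the stretches of DNA from which these genes are read, and 61 of the 71 genes matched an entry in RefSeq (GRCr8, 250 bases before to 50 after the start). Binding motifs of 2 regulators known for nuclear mitochondrial genes were searched on both strands: CCGGAAG, the core read by ETS factors such as GABP, and GCGCATGCG, the core read by NRF1. The ETS core was present in 24 of the 61 promoters (39.3%), in 18% of the promoters of other listed genes and in 9.63% of all promoters. The NRF1 core was present in 4 of them (6.56%, in Mrpl17, Mrpl32, Mrps18b and Tomm7), in 3.39% of other listed genes and in 1.7% of all promoters. AAGATGGCG, a core of the factor YY1, occurred in 8.2%, against 4.33% and 1.99%, whereas the common CCAAT box occurred in 42.6%, against 38.5% and 39.6%. The median GC content of these promoters was 57.3%, compared with 61.0% in other listed genes and 51.7% in all promoters. A match is a description of letters and not a measured binding site.

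The promoters of Mrpl23, Timm10 and Micos13 are shown as those of raised genes, picked by fold change among holders of an ETS core. That of Mrpl17 is shown for its NRF1 cores, and that of Slc25a10 as the gene called lower, whose window held neither. The ETS core was also found in the uncalled genes Coa4, Chchd5, Mrps18b, Micos10, Mtfr1l and Timm10b. It was not found in Chchd6, Timm8a1, Mrps15, Tomm6, Mrpl54 or Mrpl37, which were all called higher. Whether the core goes with the fold change was not tested. Each printed promoter runs 5′ to 3′ along its own gene, with motif matches in capitals. In Mrpl23 (chr1:207116680-207116979, plus strand) the ETS core began 67 bases before the start of the gene. In Timm10 (chr3:90314889-90315188, plus strand) it occurred 3 times, at 57, 28 and 25 bases before the start, the last pair overlapping on opposite strands. In Micos13 (chr9:1528870-1529169, minus strand) it began 24 bases before the start. In Mrpl17 (chr1:169575650-169575949, minus strand) the NRF1 core lay at 55 and 54 bases before the start, where its opposite-strand form overlaps, and again at 17. Slc25a10 lies at chr10:106264146-106264445 on the plus strand.
Mrpl23: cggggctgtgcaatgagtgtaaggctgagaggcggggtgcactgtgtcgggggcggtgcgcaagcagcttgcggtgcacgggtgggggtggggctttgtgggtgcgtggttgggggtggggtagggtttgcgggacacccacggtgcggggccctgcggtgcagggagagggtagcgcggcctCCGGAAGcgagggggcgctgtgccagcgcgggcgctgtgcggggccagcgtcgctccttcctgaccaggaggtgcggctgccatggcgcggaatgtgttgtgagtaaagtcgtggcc
Timm10: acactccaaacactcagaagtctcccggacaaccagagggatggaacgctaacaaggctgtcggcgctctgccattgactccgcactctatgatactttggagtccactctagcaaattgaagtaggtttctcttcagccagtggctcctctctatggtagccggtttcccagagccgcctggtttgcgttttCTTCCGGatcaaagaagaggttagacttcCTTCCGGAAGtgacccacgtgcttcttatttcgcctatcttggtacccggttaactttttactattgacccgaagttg
Micos13: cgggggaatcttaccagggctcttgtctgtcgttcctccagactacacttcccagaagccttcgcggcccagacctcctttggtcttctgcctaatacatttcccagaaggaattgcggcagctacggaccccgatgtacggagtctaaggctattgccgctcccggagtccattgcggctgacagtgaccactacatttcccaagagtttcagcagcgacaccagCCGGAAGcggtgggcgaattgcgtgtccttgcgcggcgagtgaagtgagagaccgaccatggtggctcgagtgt
Mrpl17: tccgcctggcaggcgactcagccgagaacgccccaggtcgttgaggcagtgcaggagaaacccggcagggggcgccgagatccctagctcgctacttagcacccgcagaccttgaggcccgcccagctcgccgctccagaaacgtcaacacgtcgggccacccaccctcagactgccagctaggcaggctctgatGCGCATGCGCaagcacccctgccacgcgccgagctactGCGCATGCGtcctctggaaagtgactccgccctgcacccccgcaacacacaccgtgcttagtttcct
Slc25a10: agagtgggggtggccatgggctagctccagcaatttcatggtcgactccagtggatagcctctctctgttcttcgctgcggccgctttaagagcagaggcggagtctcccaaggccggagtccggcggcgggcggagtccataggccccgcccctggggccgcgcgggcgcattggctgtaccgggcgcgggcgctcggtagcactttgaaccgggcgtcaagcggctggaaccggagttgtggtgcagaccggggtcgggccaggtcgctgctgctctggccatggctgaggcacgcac

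Large-subunit proteins (Mrpl) made up the biggest family. Of the 24 genes, 22 were called higher (52.3% of all listed genes were). All Hypothermia rats were above all Normal rats for 14 (41.9% of all listed genes). The median log2 fold change was 0.53, with a range of 0.30 to 1.05. Mrpl14 and Mrpl49 did not pass the test. Under each of the 5 scalings 23 of the 24 stood above the median of all listed genes, but their own median turned to -0.69 when rats were scaled by the sum of the listed genes. Mrpl23 (chr1:215701544-215709313, Rnor_6.0, plus strand), a protein near the exit of the ribosomal tunnel, had normalized read counts of 638, 606, 906, 679.7 and 932 in the Hypothermia Group and 422, 423, 303, 299.9 and 369.8 in the Normal Group. The lowest Hypothermia rat was well above the highest Normal rat, and rats 3 and 5 of the Hypothermia Group were the highest. Its log2 fold change was 1.05 ± 0.15 (SE), with an adjusted p of 0.00459 by edgeR.

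Mrpl54 (chr7:11321057-11323577) followed, with normalized read counts of 1055, 1112, 1454, 1210.5 and 1411 in the Hypothermia Group and 785, 758, 599.9, 609 and 642 in the Normal Group. Here too the groups were apart, with Hypothermia rats 3 and 5 at the top (log2 fold change 0.88 ± 0.12 (SE), adjusted p = 0.00459). Mrpl37 (chr5:126650502-126666833) had 880.2, 816, 1235, 842 and 1165 in the Hypothermia Group and 729.8, 610.3, 402, 493 and 492 in the Normal Group. Its groups were apart by a narrower gap, since Normal rat 1 came close to Hypothermia rats 2 and 4 (log2 fold change 0.86 ± 0.17 (SE), adjusted p = 0.00949).

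Mrpl33, one of the smallest proteins of the subunit, had the highest level per length in the family, 148 ± 9.62 FPKM in the Hypothermia Group and 93.3 ± 11.1 FPKM in the Normal Group (SD, n = 5). The rats had normalized read counts of 535, 575, 614, 627 and 560.2 in the Hypothermia Group and 438, 377, 350.1, 339.9 and 329 in the Normal Group. The spread within the Hypothermia Group was small, and rat 3 did not lead there (log2 fold change 0.67 ± 0.09 (SE), adjusted p = 0.00459). Mrpl23, Mrpl54, Mrpl37 and Mrpl33 kept their calls without any single rat and with TMM or median-of-ratios factors on the listed genes. With totals without lens structural genes, Mrpl37 (adjusted p = 0.0518 by edgeR) and Mrpl33 (adjusted p = 0.369) lost theirs, and all 4 genes were below 0 with totals of all listed genes.

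Small-subunit proteins (Mrps) numbered 17, of which 13 were called higher (52.3% of all listed genes were). All Hypothermia rats were above all Normal rats for 12 of these 17 genes (41.9% of all listed genes). Their median log2 fold change was 0.45, with a range of 0.28 to 0.99, and -0.80 when rats were scaled by the sum of the listed genes. Mrps9, Mrps11, Mrps18b and Mrps24 did not pass the test, although all Hypothermia rats were above all Normal rats for Mrps9. Mrps15 (chr5:144054452-144065045, plus strand) had normalized read counts of 477, 376, 592, 516 and 678 in the Hypothermia Group and 374, 262, 204, 239.9 and 253 in the Normal Group. Hypothermia rat 2 was nearly level with Normal rat 1, and the other rats were well apart (log2 fold change 0.99 ± 0.18 (SE), adjusted p = 0.00672). Mrps28 (chr2:95045034-95173753, plus strand) had 410.0, 326, 609, 518 and 513 in the Hypothermia Group and 305, 310.0, 234, 221 and 225 in the Normal Group. Hypothermia rat 2 was again the lowest of its group, just above Normal rats 1 and 2 (log2 fold change 0.87 ± 0.17 (SE), adjusted p = 0.00784).

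Mrps34 (chr10:14257001-14258132, plus strand) had normalized read counts of 510.0, 513, 678, 585 and 552 in the Hypothermia Group and 419, 385, 267, 324 and 315 in the Normal Group. The groups were clearly apart and Normal rat 3 was the lowest (log2 fold change 0.73 ± 0.13 (SE), adjusted p = 0.00575). Mrps21, which had the highest level per length of the family at 49.4 ± 4.49 FPKM in the Hypothermia Group and 39.6 ± 3.37 FPKM in the Normal Group (SD, n = 5), had normalized read counts of 476, 517, 586, 517 and 588 in the Hypothermia Group and 466, 474, 415, 394 and 405 in the Normal Group. Normal rats 1 and 2 lay just under the lowest Hypothermia rat (log2 fold change 0.32 ± 0.09 (SE), adjusted p = 0.0301). Its call was lost without any one of Hypothermia rats 3, 4 and 5 or Normal rats 3, 4 and 5, with log2 fold changes of 0.28 to 0.36 over all fits that left out a rat.

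Chchd1, named for its twin-cysteine fold, is also a small-subunit protein of the mitoribosome. Its normalized read counts were 379.8, 312, 393, 354 and 441 in the Hypothermia Group and 262, 275, 211, 215 and 208 in the Normal Group. No rat of the Normal Group reached the Hypothermia Group, and Hypothermia rat 2 was lowest (log2 fold change 0.68 ± 0.12 (SE), adjusted p = 0.00572). Over the Mrpl and Mrps genes together, 35 of 41 were called higher, against 52.3% of all listed genes. All Hypothermia rats were above all Normal rats for 26, against 41.9% of all listed genes.

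Outer-membrane import genes (Tomm) numbered 4. Tomm6, Tomm7 and Tomm20 were called higher by edgeR (52.3% of all listed genes were). Tomm40, the pore itself, had a log2 fold change of 0.30 ± 0.10 (SE) and did not pass (adjusted p = 0.0597 by edgeR). The median of the 4 genes was 0.41, and -0.84 when rats were scaled by the sum of the listed genes. Tomm6 (chr9:15313523-15314435, Rnor_6.0, plus strand), a small subunit of the TOM complex, had the highest level per length of all 71 genes, with 571 ± 68.6 FPKM in the Hypothermia Group and 301 ± 35.3 FPKM in the Normal Group (SD, n = 5). Counted per rat, it stood at 1982, 1815, 2477, 2136 and 2281 in the Hypothermia Group and 1272, 1238, 1009, 977 and 1146 in the Normal Group. The groups were far apart, with no rat near the other group (log2 fold change 0.92 ± 0.11 (SE), adjusted p = 0.00459).

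Tomm7, another small TOM subunit, had normalized read counts of 586, 527, 777, 727 and 743 in the Hypothermia Group and 455, 589, 485, 435 and 463 in the Normal Group. The groups overlapped, since Hypothermia rats 1 and 2 lay below Normal rat 2 (log2 fold change 0.47 ± 0.12 (SE), adjusted p = 0.026), and the call was lost without any one of Hypothermia rats 3, 4 and 5 or Normal rats 3, 4 and 5 (log2 fold changes of 0.41 to 0.55 over the fits that left out a rat). Tomm20 (chr19:59863421-59873411, minus strand), the receptor that recognises presequences, had 2994, 2593, 3145, 2730.2 and 2722 in the Hypothermia Group and 2345, 2379.7, 2185, 2031 and 2151 in the Normal Group. All Hypothermia rats were above all Normal rats by a small margin (log2 fold change 0.35 ± 0.08 (SE), adjusted p = 0.0152 by edgeR). With TMM factors on the listed genes Tomm20 stood at 0.07 and Tomm7 at 0.17, and both calls were lost.

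Of the 9 Timm genes, 8 were called higher, against 52.3% of all listed genes, and Timm10b was not. The median log2 fold change was 0.45, and -0.79 when rats were scaled by the sum of the listed genes. With TMM or median-of-ratios factors 2 were called higher, Timm10 and Timm17a (19.8% and 19% of all listed genes were). With totals without lens structural genes 0 were called higher (9.75% of all listed genes were). On the presequence route, Timm17a and Timm50, a channel subunit and a receptor of the TIM23 complex, were both called higher. Timm17a (chr13:52124635-52136127, minus strand) had normalized read counts of 549, 526, 690.4, 605 and 603 in the Hypothermia Group and 429, 431, 354, 362 and 339 in the Normal Group. The lowest Hypothermia rat was clearly above the highest Normal rat (log2 fold change 0.63 ± 0.10 (SE), adjusted p = 0.00494).

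On the carrier route, 5 of 6 genes were called higher on the authors' size factors, against 52.3% of all listed genes. They were the small chaperones Timm8a1, Timm10 and Timm13, the TIM22 channel Timm22 and its partner Timm29. The chaperone Timm10b was not called. With TMM or median-of-ratios factors, Timm10 alone of the 6 was called higher, and Timm22 was below 0. Timm10 (chr3:72226613-72230084, plus strand) had normalized read counts of 188, 192, 267, 215 and 249.9 in the Hypothermia Group and 147, 152, 97.1, 107 and 109 in the Normal Group. Hypothermia rats 1 and 2 were lowest of their group but above every Normal rat (log2 fold change 0.86 ± 0.16 (SE), adjusted p = 0.0067). Timm13 had 746, 677, 909, 839 and 692 in the Hypothermia Group and 528, 659, 572, 514 and 548 in the Normal Group. Normal rat 2 was just below the lowest Hypothermia rat (log2 fold change 0.45 ± 0.10 (SE), adjusted p = 0.0133).

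Timm8a1 (chrX:105352402-105355716, minus strand), the partner of Timm13, had the largest change of the family and rested on few reads. Its normalized read counts were 109, 56.5, 129, 172 and 118 in the Hypothermia Group and 78.6, 79.4, 35.0, 41.6 and 44.9 in the Normal Group. The groups overlapped, since Hypothermia rat 2 lay below Normal rats 1 and 2. Hypothermia rat 4 was the highest of its group (log2 fold change 1.07 ± 0.32 (SE), adjusted p = 0.0447 by edgeR). Leaving out Hypothermia rat 1, 3, 4 or 5 or Normal rat 3, 4 or 5 removed the call, and the log2 fold change ran from 0.88 to 1.24 over the 10 fits that omitted a rat.

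Of the 7 Chchd and Coa genes, 5 were called higher, against 52.3% of all listed genes. The median log2 fold change of the 7 was 0.48, and -0.74 when rats were scaled by the sum of the listed genes. Chchd5 and Coa4 did not pass. Chchd6 (MIC25, chr4:121340952-121565212, Rnor_6.0, minus strand) had the largest change of all 71 genes. It belongs to MICOS, the complex that holds cristae, the folds of the inner membrane, at their necks. Its normalized read counts were 533, 422, 747, 575 and 637 in the Hypothermia Group and 297, 277, 174, 168 and 235 in the Normal Group. The groups were far apart, and Hypothermia rat 3 was the highest (log2 fold change 1.34 ± 0.19 (SE), adjusted p = 0.00459). It was also the single gene of the 71 that stayed above 0 when rats were scaled by the sum of the listed genes, at 0.13, where it was not called.

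The MICOS subunit Chchd3 (MIC19) had normalized read counts of 978, 882, 1151, 903 and 1043 in the Hypothermia Group and 855, 682, 621, 609 and 633 in the Normal Group. Normal rat 1 was only just below the lowest Hypothermia rat (log2 fold change 0.54 ± 0.11 (SE), adjusted p = 0.00951). Micos13 (chr9:10446699-10449566, plus strand), a MICOS subunit also known as QIL1, had 1631, 1722, 2072, 1931 and 1980.3 in the Hypothermia Group and 1186, 1291, 1099.6, 1040.4 and 981 in the Normal Group. The lowest Hypothermia rat was well above the highest Normal rat (log2 fold change 0.74 ± 0.10 (SE), adjusted p = 0.00459). Micos10 (MIC10), which bends the membrane at the necks of cristae, had 722, 831, 862, 919.6 and 786 in the Hypothermia Group and 649, 753, 734, 619 and 609 in the Normal Group. Normal rats 2 and 3 lay above Hypothermia rat 1, and the gene just missed the threshold (log2 fold change 0.29 ± 0.09 (SE), adjusted p = 0.0505). Over these 4 MICOS genes the median log2 fold change was 0.64, and 3 were called higher, against 52.3% of all listed genes.

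Coa5, an assembly factor of cytochrome c oxidase, had the highest level per length in its family, 56.6 ± 7.63 FPKM in the Hypothermia Group and 40.5 ± 6.42 FPKM in the Normal Group (SD, n = 5). In normalized read counts the rats stood at 3616, 3003, 4363, 3489.6 and 3763 in the Hypothermia Group and 3279, 2735, 2322, 2333 and 2365 in the Normal Group. Normal rat 1 lay above Hypothermia rat 2 (log2 fold change 0.48 ± 0.13 (SE), adjusted p = 0.0251), and the call was lost without Hypothermia rat 1, 3 or 5 or Normal rat 3, 4 or 5 (log2 fold changes of 0.41 to 0.58 over such fits). Mtfr1l, a regulator of mitochondrial fission, had 1145, 1053, 1206, 1131 and 1252 in the Hypothermia Group and 1156, 1016, 886, 833 and 966 in the Normal Group. The groups overlapped, with Normal rat 1 above 3 Hypothermia rats, and the gene did not pass (log2 fold change 0.25 ± 0.10 (SE), adjusted p = 0.115).

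Carriers (Slc25a) were the one family with genes on both sides. Of the 7, 5 were called higher (Slc25a4, Slc25a11, Slc25a20, Slc25a38 and Slc25a39), Slc25a10 was called lower and Slc25a27 was not called. Of all listed genes, 52.3% were called higher and 20.5% lower. All 5 calls of higher carriers were lost under each of the 4 other scalings: with TMM, median-of-ratios factors or totals without lens structural genes 0 were called higher and 2 lower, and with totals of all listed genes all 7 were called lower. The median was 0.37, or 0.01 above that of all listed genes, and -0.88 when rats were scaled by the sum of the listed genes. Slc25a4 (chr16:49266903-49270698, Rnor_6.0, plus strand), the ADP/ATP carrier that exports ATP from mitochondria, was the most abundant carrier per length, with 276 ± 28.3 FPKM in the Hypothermia Group and 201 ± 19.4 FPKM in the Normal Group (SD, n = 5). In normalized read counts it stood at 5533, 5151, 6545, 5940.1 and 6511 in the Hypothermia Group and 4819, 4674, 3809, 4135 and 4160.3 in the Normal Group. The groups were apart, with Normal rats 1 and 2 nearest to the Hypothermia Group (log2 fold change 0.46 ± 0.10 (SE), adjusted p = 0.0134).

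Slc25a39, a glutathione importer, had normalized read counts of 1242, 1128, 1383, 1114 and 1356 in the Hypothermia Group and 1023, 978, 986, 904 and 847 in the Normal Group. Its groups did not overlap, with Hypothermia rats 2 and 4 nearest to the Normal Group (log2 fold change 0.39 ± 0.09 (SE), adjusted p = 0.0134). Slc25a38, which carries glycine for haem synthesis, had 506, 497, 474, 485 and 623 in the Hypothermia Group and 436, 433, 372, 373 and 376 in the Normal Group. Hypothermia rat 5 stood far above the other 4 of its group (log2 fold change 0.38 ± 0.09 (SE), adjusted p = 0.0202), and the call was lost without Normal rat 3, 4 or 5 (log2 fold changes of 0.30 to 0.41 with a rat left out).

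Slc25a10 (chr10:109665682-109673143, plus strand), the dicarboxylate carrier that exchanges malate and succinate for phosphate, went the other way. Its normalized read counts were 188, 213, 152, 200.0 and 175 in the Hypothermia Group and 236, 239, 271, 230.3 and 229.8 in the Normal Group. All Hypothermia rats were below all Normal rats, with Hypothermia rat 3 lowest and Normal rat 3 highest (log2 fold change -0.38 ± 0.11 (SE), adjusted p = 0.0344). It was called lower under all 5 scalings, with log2 fold changes of -0.38 to -1.60. The call was nevertheless lost without Hypothermia rat 1, 3 or 5 or Normal rat 2, 3, 4 or 5, with log2 fold changes of -0.43 to -0.31 and, without Normal rat 3, an adjusted p of 0.0919 by edgeR. Slc25a27 (chr9:19880473-19907458, plus strand), also called UCP4, had 201, 199.7, 157, 162 and 216 in the Hypothermia Group and 206, 235, 259, 238 and 252 in the Normal Group. The groups overlapped through Normal rat 1 and Hypothermia rat 5 (log2 fold change -0.35 ± 0.11 (SE), adjusted p = 0.0645), and the gene was called lower under each of the 4 other scalings.

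**Figure D2:**
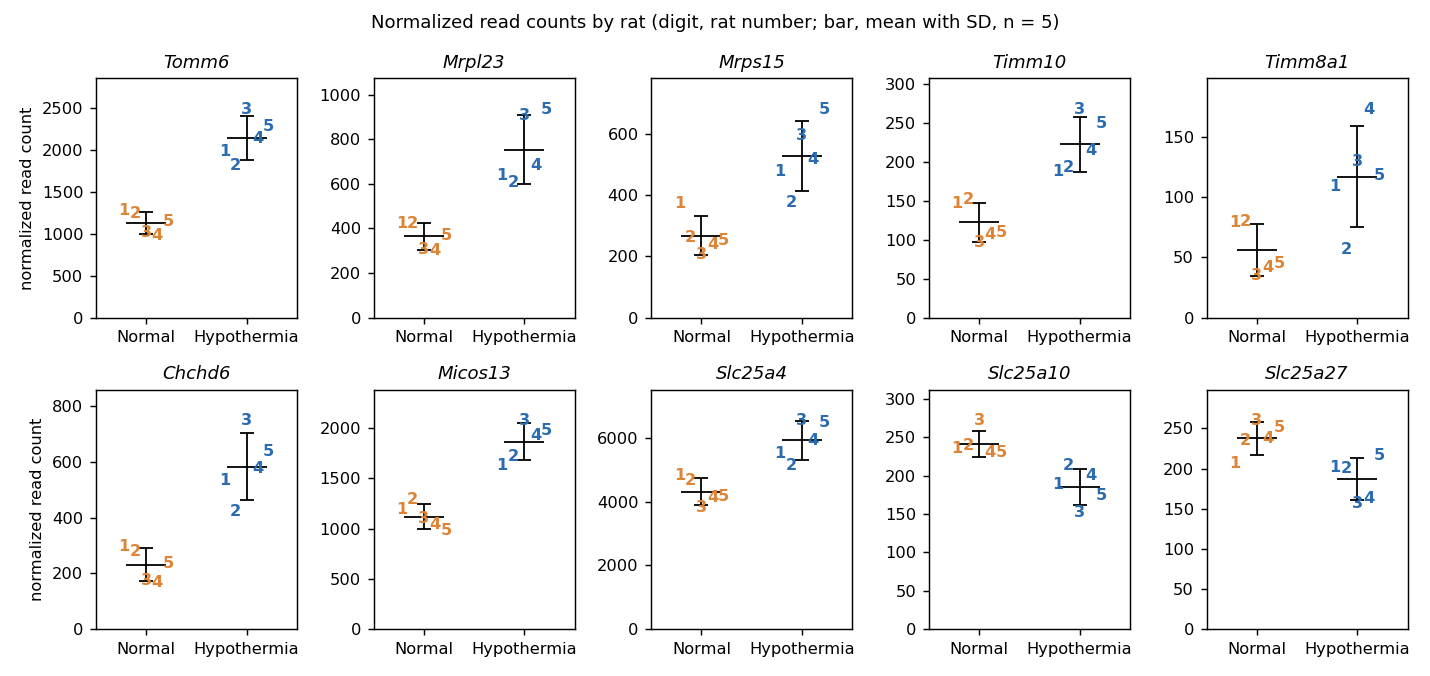
Normalized read counts (vertical axes, each from 0) of 10 genes in each rat; digits give the rat number, the long horizontal bar the group mean and the whiskers the SD (n = 5). Tomm6, Mrpl23, Mrps15, Timm10, Chchd6, Micos13 and Slc25a4 show 2 groups apart and higher in the Hypothermia Group, Timm8a1 overlaps through Hypothermia rat 2, and Slc25a10 and Slc25a27 lie lower; by the sum of all listed genes, all of these but Chchd6 would be lower.

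Other mitochondrial genes from lists drawn up beside the name rule were also higher in most cases where they were listed, on the authors' size factors. Listed genes had already passed the authors' test of the same contrast, and these lists were not read under the other scalings. Of 19 genes for the import motor, processing peptidases and related steps, 10 were listed. All 10 were called higher by edgeR, against 52.3% of all listed genes, with a median log2 fold change of 0.48. Pam16, a subunit of the motor that pulls precursors through TIM23, had 400 ± 47.5 normalized read counts in the Hypothermia Group and 216 ± 29.1 in the Normal Group (SD, n = 5; log2 fold change 0.89 ± 0.11 SE, adjusted p = 0.00459). Hspe1, the co-chaperonin that helps imported proteins fold, was called higher at a log2 fold change of 0.74 ± 0.11 (SE), and so was the motor subunit Dnajc19, also at 0.74 ± 0.11 (SE).

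Of 16 other carriers and channels 7 were listed, and all 7 were called higher, against 52.3% of all listed genes. Sfxn1, a serine transporter of the inner membrane, was at 967 ± 200.4 and 484 ± 115 normalized read counts in the Hypothermia and Normal Groups (SD, n = 5; log2 fold change 0.998 ± 0.18 SE, adjusted p = 0.00636 by edgeR). The pyruvate carrier subunits Mpc1 and Mpc2 had log2 fold changes of 0.57 ± 0.09 and 0.55 ± 0.08 (SE). Of 14 symbols for fission, fusion and cristae genes, 4 were found in the table (Phb, Apoo, Mief2 and Fis1). All 4 were called higher, against 52.3% of all listed genes. The scaffold protein Phb led them at a log2 fold change of 0.71 ± 0.12 (SE). The 14 included Minos1, an older symbol of Micos10, which is counted with the 71 genes and was not called.

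Translation factors of mitochondria were nearly absent from the table: 1 of 13 was listed, Tufm, the elongation factor that brings tRNAs to the mitoribosome, and it did not pass (log2 fold change 0.33 ± 0.11 SE, adjusted p = 0.0639 by edgeR). Of 7 symbols taken as mitoribosomal genes under other names, 2 were found in the table. Gadd45gip1 (log2 fold change 0.28 ± 0.10 SE) was not called. Rpl36al (0.53 ± 0.14 SE) was called, but by its name it is a cytosolic ribosomal protein and does not bear on the mitoribosome. The 7 included Ict1, an older symbol of Mrpl58, which is counted with the 71 genes. Of 12 regulators of mitochondrial genes, among them Nrf1, Gabpa, Tfam and Yy1, only the coactivator Ppargc1a was listed. It had few reads, 41.0 ± 11.04 normalized read counts in the Hypothermia Group and 74.9 ± 29.4 in the Normal Group (SD, n = 5), and was not called (log2 fold change -0.87 ± 0.30 SE, adjusted p = 0.0811). Since listed genes had been chosen by the authors' test, the share of a list that was called says little, and absence from the table is not a measured lack of change.

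Rats varied together over the 71 genes. As the median over these genes of the log2 level above the Normal mean (pseudocount 1), Hypothermia rats 1 to 5 stood at 0.38, 0.27, 0.68, 0.51 and 0.55. Normal rats 1 to 5 stood at 0.17, 0.11, -0.07, -0.13 and -0.08. The groups did not overlap, with Hypothermia rat 2 and Normal rat 1 nearest to each other. Hypothermia rat 3 was the highest of its group for 43 of the 71 genes and Hypothermia rat 2 the lowest for 46, while Normal rat 1 was the highest of its group for 42.

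The other listed genes ordered the rats in a similar way, with medians of 0.32, 0.22, 0.46, 0.31 and 0.38 in the Hypothermia Group and 0.09, 0.05, -0.08, -0.07 and 0.00 in the Normal Group. The lens structural genes moved with the groups too. Of 20 crystallins, membrane and filament genes of lens fibres, 19 were listed and all 19 were called higher, with a median log2 fold change of 2.15. Their share of all listed counts was 61.9, 58.5, 66.5, 61.3 and 70.2% in Hypothermia rats and 52.3, 42.3, 22.3, 31.3 and 38.6% in Normal rats. Normal rat 1, the highest of its group for the mitochondrial genes, also had the largest lens share of its group. Outside lens structural genes, the 71 genes made up 1.09 to 1.24% of listed counts in Hypothermia rats and 1.04 to 1.18% in Normal rats, and these ranges overlapped. The part of lens fibre content in the result was not tested.

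**Figure D3:**
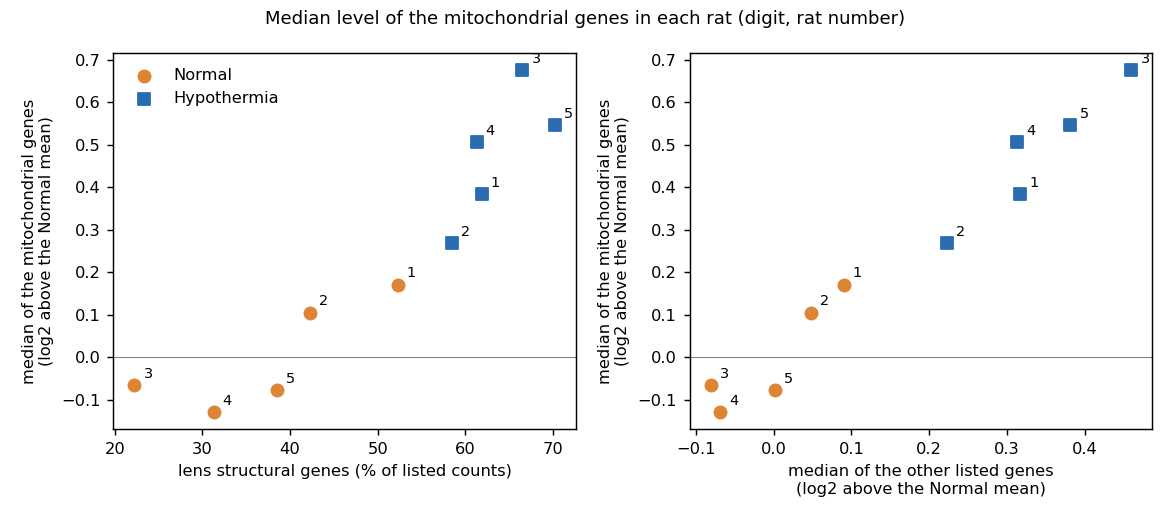
Median level of the 71 genes in each rat (vertical axes, log2 above the mean of the Normal Group) against the share of listed counts in lens structural genes (left, %) and against the median of the other listed genes (right, log2); digits give the rat number. Normal rats 3, 4 and 5 lie at the lower left and Hypothermia rats 3 and 5 at the upper right of both panels, on the authors' size factors.

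Markers of other cell types were few in the table. For the lens epithelium, 2 of 8 markers were listed and their summed normalized read counts were 18843 to 23817 in the Hypothermia Group and 25604 to 32027 in the Normal Group. Pax6, a transcription factor of the lens epithelium, was called lower (log2 fold change -0.26 ± 0.08 SE, adjusted p = 0.0498 by edgeR), and Gja1, a gap junction protein, was not called (-0.43 ± 0.14 SE). Connective tissue markers, 3 of 8 listed, summed to 935 to 4911 and 2034 to 30336, and Fn1 was called lower. For retina and pigment epithelium 5 of 8 markers were listed, with sums of 191 to 437 and 363 to 1585, and none was called among the 3 tested. Melanocyte markers, 2 of 5 listed, summed to 21.3 to 67.5 and 48.5 to 175 with Pmel called lower, vessel markers, 2 of 5 listed, to 311 to 411 and 395 to 653 with none called, and no blood marker of 7 was listed. The part of these cells in the result was not tested.

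Gene length also moved with the fold change. The 71 genes were short, with a median length of 1078 bases against 2191.5 for all listed genes, and 41 of them fell in the shortest of 4 equal bins of the listed genes (68 to 1260 bases). Other listed genes of that bin had a median log2 fold change of 0.62, and in each longer bin it was lower, at 0.40, 0.28 and -0.32. The mitochondrial genes stood at 0.48 in the shortest bin, below other genes of the same length, at 0.41 with 22 genes in the bin of 1260 to 2160 bases, and at 0.48 with 6 genes in the bin up to 3725 bases, above the other genes there. Called higher were 85.4% of the mitochondrial genes and 76.4% of the other genes in the shortest bin, 72.7% and 66.4% from 1260 to 2160 bases, and 83.3% (5 of 6) and 42.3% in the bin up to 3725 bases. Without a call threshold, 92.7% of the other genes in the shortest bin were higher in the Hypothermia Group, as were all 41 mitochondrial genes. From 1260 to 2160 bases 78.2% of the others and 21 of 22 were. In the bin up to 3725 bases 53.1% and 6 of 6 were, and in the longest bin 30.6% and 1 of 2. Of the 2 genes in the longest bin, Coa5 was called higher and Slc25a27 was not called. The paper states a minimum RNA integrity for the samples it sequenced, but RNA quality was not given for each rat. The parts of RNA quality and gene length in the result were not tested.

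**Figure D4:**
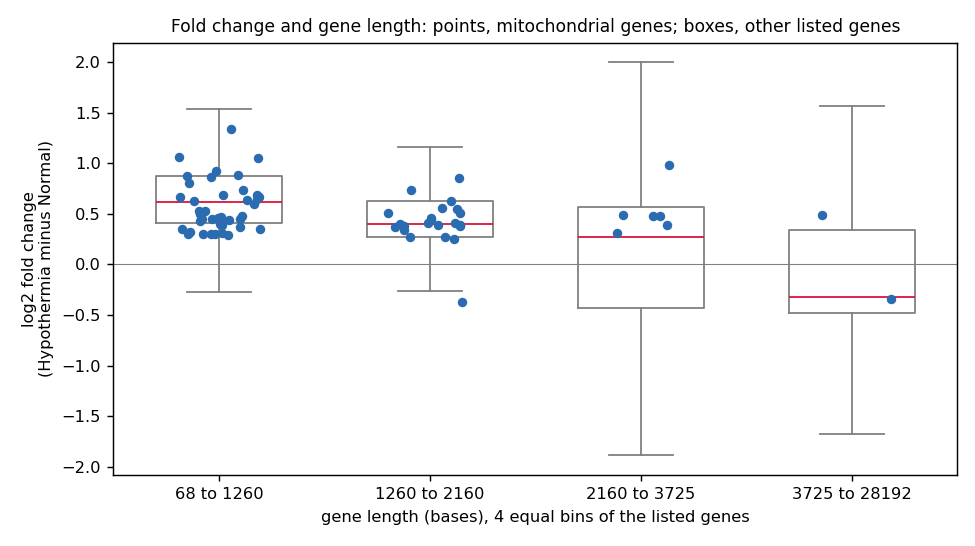
Log2 fold change (Hypothermia minus Normal, vertical axis) by 4 equal bins of gene length in bases (horizontal axis); points are the 71 mitochondrial genes, and boxes give the quartiles and median (line) of the other listed genes with whiskers to 1.5 times the box height. Box medians step down from 0.62 to -0.32 with length, while 41 points sit in the shortest bin; both stand on the authors' size factors, and scaling by the sum of all listed genes would place 70 points below 0.

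Position adds some detail to single genes. Mrpl46 and Mrps11 lie head to head on chromosome 1 with 72 bases between them, and had log2 fold changes of 0.41 ± 0.11 (SE, called higher) and 0.30 ± 0.09 (SE, not called). The other neighbours within 1000 bases did not always go along: Mrpl50 was called higher at 0.56 ± 0.12 (SE) and Zfp189, 138 bases away, was called lower at -0.43 ± 0.13 (SE, adjusted p = 0.0433 by edgeR). Mrpl18 and Tcp1, a chaperonin subunit gene 372 bases away, were both called higher, at 0.39 ± 0.11 and 0.48 ± 0.11 (SE). Mrps18b and Ppp1r10 (584 bases) were both not called, and neither were Slc25a27 and Cyp39a1 (127 bases), at -0.35 ± 0.11 and -0.43 ± 0.13 (SE). Mrps7 overlaps the listed gene Gga3 on the other strand, and since the strand setting of the counting is not given in the sources used here, reads of that pair cannot be told apart. For 26 of the 71 genes RefSeq lists pseudogenes or like-named copies, 8 for Slc25a39, 5 for Tomm7 and 4 each for Tomm20 and Mrps36, and reads shared with them were not tested.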

How the data were processed

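RNA-seq counts of 10 rat lens capsule samples were analysed. Per the labels and the paper's methods, the authors aligned reads to Rnor_6.0 with HISAT2 2.0.5 and counted them with featureCounts 1.5.0-p3; the deposited counts are whole reads per gene without normalization. The authors derived the deposited FPKM from the counts and gene length. The table also holds the log2 fold changes and the p-values, raw and adjusted, that the authors obtained with DESeq2 1.16.1 and that were not used here, and the authors' mean normalized counts of each group, a signal in depth-scaled reads.

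The authors' size factors were recovered from those 2 means by least squares (largest relative error 9.2e-10). Counts of all listed genes entered edgeR 4.0.16 under R 4.3.3: filterByExpr, then estimateDisp, a robust glmQLFit and glmQLFTest, with group as sole factor. Benjamini-Hochberg adjustment ran over 17000 genes, the study's expressed genes rounded, with unlisted genes taken as not passing. SE is the log2 fold change over the square root of F. The test was checked on simulated counts in which few genes changed, as many up as down, with adjustment over the tested genes alone. That setting differs from the selected table analysed here. Figures used matplotlib 3.10.9.

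The 71 genes and all lists were chosen with earlier results of these data known. Genes described rat by rat were the 3 most raised and up to 3 lowered of each family and its member with the highest FPKM, and Micos10, Micos13 and Mtfr1l. Promoters came from RefSeq GRCr8, while gene coordinates are those of the deposited table (Rnor_6.0). Each group numbers its rats 1 to 5, and these are different animals. Alternatives were 4 other scalings, DESeq2 1.42.0, no filter, other adjustment, robust = FALSE, a replicate block and leaving out each rat.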

Additional observations from a re-analysis of the deposited data

Results flagged for a closer look

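A single rat stood far from the others of its group for 2 genes described above, out of 58 groups of 5 looked at, where chance alone flags about 1 in 20. For Slc25a38, Hypothermia rat 5 had 623 normalized read counts, and the nearest rat of its group had 506. For Slc25a10, Normal rat 3 had 271 normalized read counts, and the nearest rat of its group had 239.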

How the results depend on the processing

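The largest influence was the scaling of the rats. With TMM factors on the listed genes, 17 genes were called higher and 2 lower, against 19.8% and 34.2% of all listed genes. The median log2 fold change of the 71 genes was 0.17, with Mtfr1l at -0.031. The same fit adjusted over the tested genes called 27 and 2, against 32.3% and 36.2%. Median-of-ratios factors on the listed genes gave 17 and 2, against 19% and 34.2%, with a median of 0.15, Mtfr1l at -0.052 and Micos10 at -0.017. Totals without lens structural genes gave 6 and 2, against 9.75% and 35%, with a median of 0.0021. Values were then negative for Mtfr1l (-0.19), Slc25a38 (-0.072), Tomm20 (-0.095), Slc25a39 (-0.065), Mrps21 (-0.13) and Micos10 (-0.15). Totals of all listed genes gave 0 called higher and 53 lower, against 1.77% and 74.4%, and a median of -0.79. There the log2 fold changes were -0.60 in Timm17a, -0.36 in Timm10, -0.24 in Mrps15, -0.36 in Mrpl37, -0.56 in Chchd1, -0.77 in Slc25a4, -0.11 in Timm8a1, -0.68 in Chchd3, -0.47 in Mrps34, -0.97 in Mtfr1l, -0.74 in Coa5, -0.86 in Slc25a38, -0.79 in Timm13, -0.88 in Tomm20, -0.19 in Mrpl23, -0.35 in Mrpl54, -0.86 in Slc25a39, -0.92 in Mrps21, -0.54 in Mrpl33, -0.37 in Mrps28, -0.94 in Micos10, -0.79 in Tomm7, -0.50 in Micos13 and -0.31 in Tomm6. The cause of these shifts was not tested.

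DESeq2 called 64 higher and 2 lower, against 58.8% and 29.4% of all listed genes. Adjustment over the tested genes called 69 and 2, against 63.7% and 36.3%, so nearly every listed gene was called. No filter (59 and 1, against 51.7% and 20.9%) and robust = FALSE (58 and 1, against 52.6% and 20.8%) stayed close. Leaving out each rat gave 34 to 62 called higher (33.3% to 53.1% of all listed genes) and 0 to 2 lower (9.27% to 20.5%). Medians were then 0.41 to 0.51. With the replicate block, 23 were called higher and 0 lower, against 25.1% and 4.16%. Equal numbers name different animals, and the deviations of same-numbered rats correlated at -0.17 to 0.23, so the numbers were not taken as pairs; no rat correlated best with its own number. The depth of the full libraries was not known, and whether further mitochondrial genes changed was not measured here.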
